A study of Canis lupus familiaris with 5 samples.

Results

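The collagen, laminin and integrin genes of the dog genome were described across the peak lists of 3 double homeobox transcription factors. A gene was taken where its symbol in the lists (the dog name, or the human homolog's name where no dog name was given) began with COL and a digit, with LAMA, LAMB or LAMC and a digit, or with ITGA or ITGB. This gave 56 gene identifiers with 55 symbols, of 11509 named gene identifiers in all 3 lists together, so 11453 other named genes served as the background. They comprised 26 collagen, 10 laminin and 20 integrin identifiers, ITGAD being listed under 2. Of the 55 symbols, 52 name a subunit and 3 do not. Those 3 are COL4A3BP (a ceramide transfer protein), ITGB1BP1 (a cytoplasmic partner of an integrin beta tail) and ITGBL1 (a secreted protein with integrin beta-like repeats). A gene was counted only where it was the nearest gene to some peak and the lists gave it a symbol. Of the dog RefSeq symbols that match the same pattern, 53 of 85 (62.4%) were named in the lists, beside 9458 of 17310 other protein-coding symbols (54.6%). COL4A1, COL6A1, COL6A2, COL12A1, ITGA5, ITGA7, ITGB3 and LAMB2 are among those not named there, and were not analysed here. A gene that is not named there may still lie nearest to a peak under an identifier without a symbol.

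Collagens are triple-helical proteins that form the fibrils and networks of connective tissue. Laminins are trimers of an alpha, a beta and a gamma chain that build the basement membrane around each muscle fibre. Integrins are pairs of an alpha and a beta subunit in the cell membrane that bind these matrix proteins outside the cell and the cytoskeleton inside it. Loss of the laminin alpha chain encoded by LAMA2, or of type VI collagen, causes muscular dystrophy in humans. DUX4 is a transcription factor of the cleavage-stage embryo whose misexpression in muscle causes facioscapulohumeral dystrophy, and DUXC is the dog gene related to it.

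Immortalized dog myoblasts, the precursor cells of skeletal muscle, carried the lentiviral vector pCW57.1, and factor binding was mapped by ChIP-seq, the sequencing of DNA fragments pulled down with an antibody to the bound protein. The groups were DUXC in a monoclonal line, DUXC-ALT in a polyclonal line, DUX4 in a monoclonal line, and luciferase in a monoclonal and in a polyclonal line, with 1 library in each of the 5 groups. The 3 factor lines were doxycycline inducible and the luciferase lines were not. The protocol shared by all samples gives doxycycline at 1 µg/ml for 24 hours, with or without, and does not say which samples went without. Per that protocol the chimeric construct had the canine C-terminal domain exchanged for that of human DUX4, so that antisera raised in rabbits against the human domain could be used. The sample titles call the DUX4 construct hDUX4, read here as human DUX4, the DUXC construct CCH and the DUXC-ALT construct CALTh. Peaks of the DUXC and DUXC-ALT lists may therefore be those of chimeric proteins, which the titles do not spell out. Clonality therefore differed along with the factor, and each monoclonal line is 1 clone.

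Peak lists of DUXC (6031 peaks), DUXC-ALT (561) and DUX4 (85825) were analysed. Of these, 21, 0 and 253 lay nearest to the genes chosen here, and 3185, 281 and 39763 to other named genes. The rest lay nearest to a gene without a symbol and enter no count by nearest gene. With 1 library per group, no difference between factors or gene sets has a replicate check, and no test was made. Shares carry exact 95% Clopper-Pearson intervals and densities exact Poisson intervals, both covering counting error only. The lists differ so much in length that their counts do not rank the factors. Peak lists hold no expression, so the labelled cell type could not be checked against markers. Positions are those of the canFam3 build, per the submitters' processing notes.

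DUXC peaks lay nearest to 18 of the 56 genes, DUXC-ALT peaks to none, and DUX4 peaks to all but LAMA5. For DUXC this was 32.1% of the genes (interval 20.3 to 46.0%), beside 23.0% of the other named genes, which lies within that interval. For DUXC-ALT it was 0 of 56, beside 2.36% of the other named genes. A count of 0 allows a share of up to 5.36% when taken as 3 genes of the 56, and the two-sided exact interval reaches 6.38%. The depth of that list cannot tell those apart. For DUX4 it was 55 genes or 98.2% (90.5 to 99.95%), beside 97.5%, a share that is near its ceiling in both sets. Genes were counted only if nearest to a peak in some list, and most peaks are in the DUX4 list. The DUX4 share was therefore high by construction. DUXC had 21 peaks nearest to these genes, with at most 2 at any gene, and DUX4 had 253, with a median of 3.5 and at most 21.

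**Figure D1:**
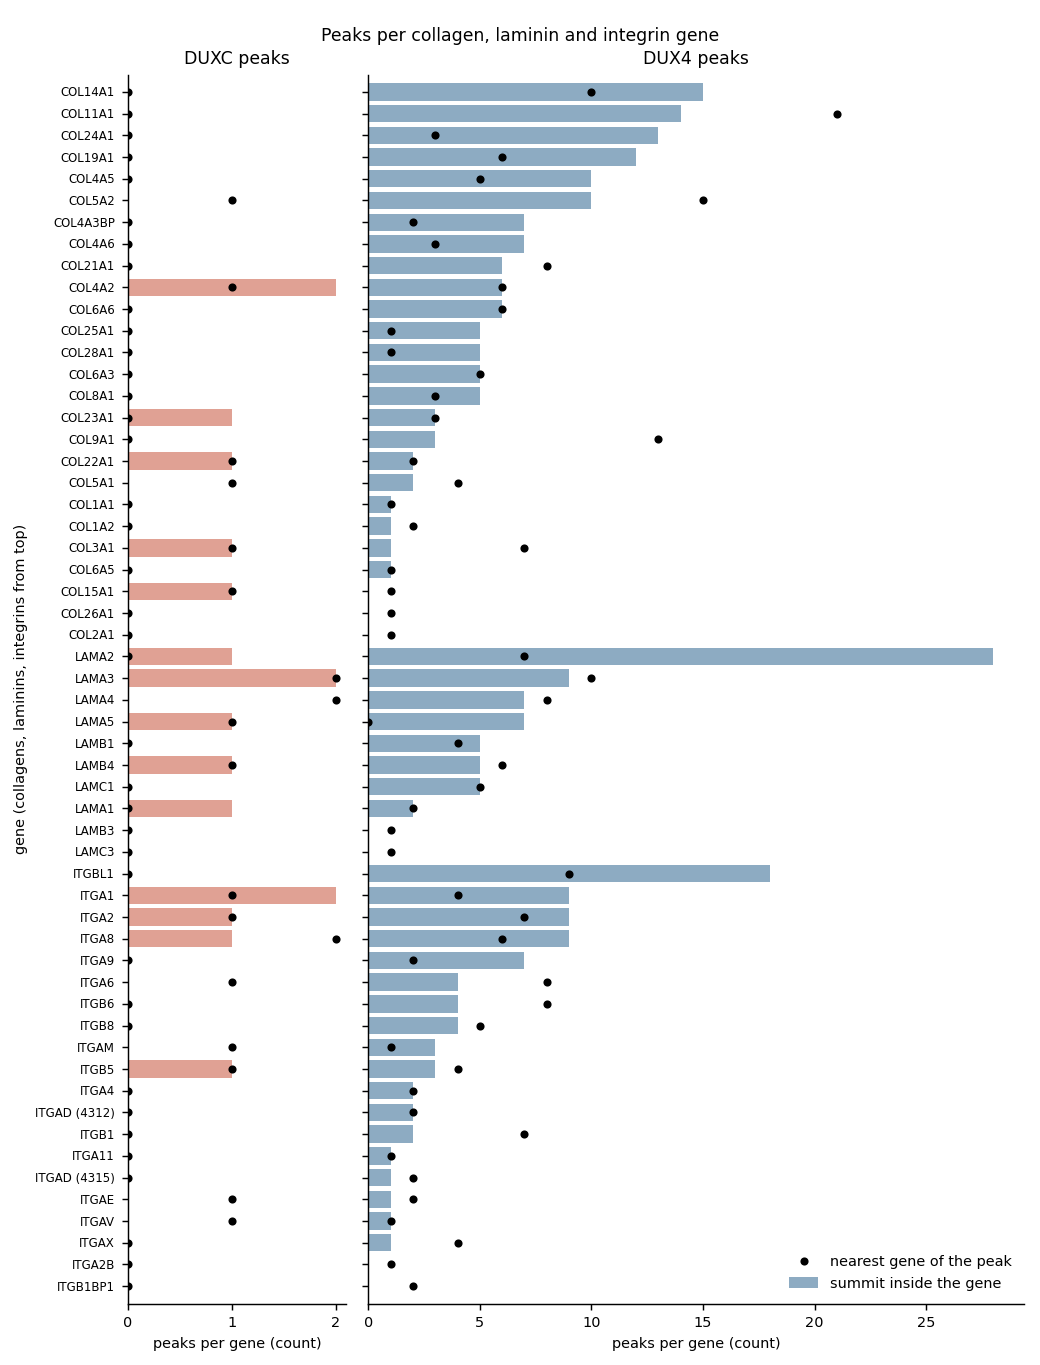
Peaks at each of the 56 collagen, laminin and integrin genes (rows) in the DUXC list (left) and the DUX4 list (right). Bars count the peaks whose summit lies between the gene's listed ends, and points count the peaks for which it is the nearest gene. LAMA2 has the longest DUX4 bar with 28 summits but only 7 nearest peaks, while COL11A1 has the most nearest peaks, 21.

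The rule for a peak's gene mattered for single genes, as the plot of peaks per gene shows where bar and point part. Of the 289 DUX4 summits inside these genes, 168 had one of them as the nearest gene. Of the other 121, the nearest gene was unnamed for 85 and was another named gene for 36. LAMA2 had 28 DUX4 summits inside and 7 nearest peaks, ITGBL1 18 and 9, and COL24A1, a fibrillar collagen gene, 13 and 3. The other way round, COL9A1 had 3 summits inside and 13 nearest peaks, and COL3A1 had 1 and 7. Counts by nearest gene and by position are therefore both drawn for every gene, while single genes below are mostly given by nearest gene. A gene's ends and span come from the transcripts that the lists name for its peaks, and can fall short of the full gene. At COL15A1, for example, a DUX4 peak in intron 2 of 40 lay outside the listed span. The count by position was added after the data were seen.

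These genes are long, and length moved with the number of peaks inside a gene. Their median span was 100802 bp, beside 25344 bp for the other named genes, and 28 of 56 (50%) spanned 100 kb or more, beside 16.6%. A DUXC summit lay inside 14 of the 56 (25%, 14.4 to 38.4%), beside 12.9% of the other named genes. A DUX4 summit lay inside 49 (87.5%, 75.9 to 94.8%), beside 55.9%. At least 5 DUX4 summits lay inside 27 genes (48.2%), beside 14.4%. Among genes of 100 kb or more the sets lay close together. DUXC summits lay inside 10 of 28 long genes of these families (35.7%, 18.6 to 55.9%), beside 37.5% of the other long genes, and DUX4 summits inside 28 of 28, beside 98.3%.

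Per length, the collagen, laminin and integrin genes held about as many summits as other genes. DUXC had 17 summits in 7.98 Mb, or 0.213 per 100 kb (0.124 to 0.341), beside 0.277 (0.264 to 0.290) in the other named genes. DUXC-ALT had 0, with an upper bound of 0.0462 per 100 kb, beside 0.0229 (0.0194 to 0.0269). DUX4 had 289, or 3.62 per 100 kb (3.22 to 4.07), beside 3.75 (3.71 to 3.80). In each list the value of the other genes lay inside the interval of these genes. Without LAMA5, whose listed span is uncertain, the DUX4 value was 3.90 (3.46 to 4.38), which lies above that of the other genes in place of below it. With DUXC peaks of at least 10-fold enrichment alone, the DUXC values were 0.0501 (0.0137 to 0.128) and 0.0386, again in the other order. The first of these rests on 4 summits, including those in LAMA5 and COL4A2 that are uncertain as peaks of these genes. Along genes of 100 kb or more, the median DUX4 summit lay at 49.6% of the gene's length from its start, beside 48.0% in other long genes. The first 10% of the gene held 9.05% of the summits (5.69 to 13.5%), beside 10.4%.

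**Figure D2:**
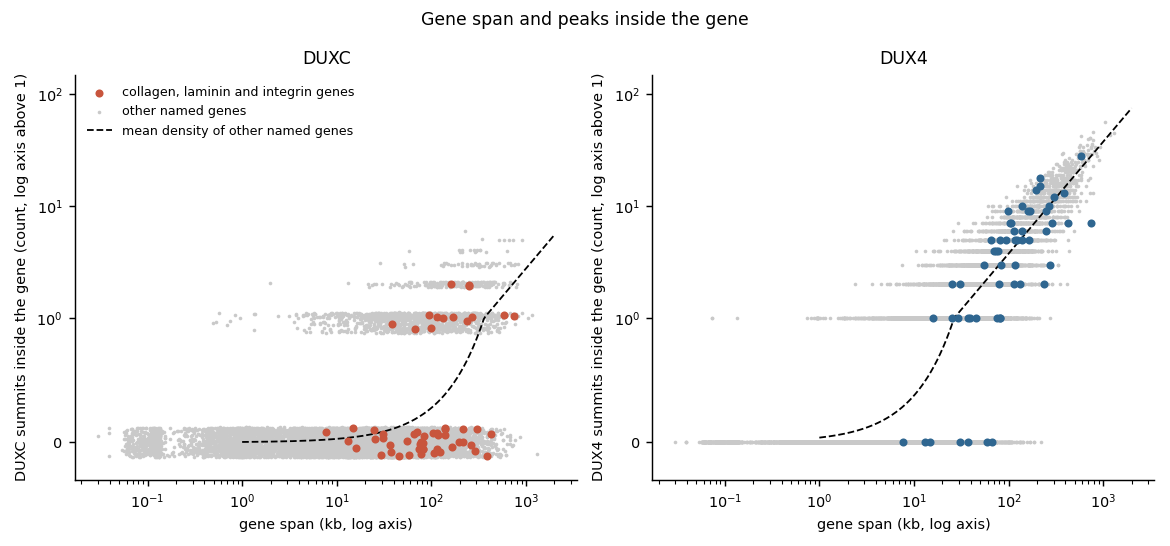
Gene span in kb (horizontal, log axis) against the number of peak summits inside the gene (vertical, log axis above 1, small vertical shifts added to separate points in the DUXC panel). Coloured points are the 56 collagen, laminin and integrin genes, grey points are the other named genes, and the dashed line is the mean density of the other named genes, 0.277 per 100 kb for DUXC and 3.75 for DUX4. The coloured points lie on both sides of the line within the grey cloud.

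Single genes ranged widely around that mean in the DUX4 list. Among the 28 genes of 100 kb or more, ITGBL1 had the highest density, 8.30 per 100 kb (Poisson interval 4.92 to 13.1). COL5A2, a type V fibrillar collagen chain, had 7.14 (3.42 to 13.1) and COL11A1, a type XI chain, had 7.11 (3.89 to 11.9). COL14A1, which encodes a collagen that coats fibrils, had 6.94 (3.88 to 11.4). At the low end, COL22A1, a collagen known from myotendinous junctions, had 0.839 (0.102 to 3.03), LAMA5 had 0.942 (0.379 to 1.94) and COL23A1, a transmembrane collagen, had 1.10 (0.228 to 3.23). The quartiles of the other genes of 100 kb or more were 2.50 and 4.90. The mean of the other long genes was 3.78. The intervals of ITGBL1, COL11A1 and COL14A1 lie above it, that of COL5A2 covers it, and those of COL22A1, LAMA5 and COL23A1 lie below it. These genes were picked as extremes after their values were seen.

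Among the fibrillar collagens, whose chains make up the fibrils of connective tissue, 3 of 8 genes were nearest to a DUXC peak, none to a DUXC-ALT peak and 8 of 8 to DUX4 peaks. Beside this and each count by role below stand 23.0%, 2.36% and 97.5% of the other named genes for DUXC, DUXC-ALT and DUX4. With at most 8 genes per role, the counts are too few to set any role apart from those shares. The fibrillar collagen genes held the strongest peaks of either list among the 56 genes by fold enrichment. This is the authors' value for a peak over its local background, used here only within a list. At COL3A1, which encodes type III collagen, the DUXC peak had a fold enrichment of 13.3, the highest of the 21, and ranked 175 of 6031 in that list. It lay in intron 35 of 50 at chromosome 36, 30516120 to 30516472, outside recorded repeats, and overlapped no DUX4 peak. At COL5A2 the DUXC peak lay 95329 bp upstream of the start, and its fold enrichment was 7.56. It coincided with a DUX4 peak of 12.1 whose summit was 10 bp away. At COL5A1, the partner chain of COL5A2 in type V collagen, a DUXC peak of 5.47 lay 11215 bp upstream in an L1ME1 element. It overlapped a DUX4 peak of 20.2 at chromosome 9, 50729674 to 50730468, the second strongest DUX4 peak with a collagen, laminin or integrin gene as its nearest gene.

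The neighbouring COL3A1 and COL5A2 genes on chromosome 36 were nearest to more DUX4 peaks than any other group of neighbouring genes of these families. Together they were the nearest gene of 2 DUXC, 0 DUXC-ALT and 22 DUX4 peaks. The pair spans 189.8 kb and held 11 DUX4 summits. COL5A2 was nearest to 15 DUX4 peaks with a median fold enrichment of 12.1, and 9 of them reached 10. For comparison, 23.6% of the DUX4 peaks at other named genes reached 10. The strongest of the 15, at 21.5, lay in intron 1 of 53 at chromosome 36, 30650020 to 30650464, and ranked 294 of 85825 in the list. It had no DUXC counterpart. Of the 15, 9 were intergenic. The DUX4 peak of 13.7 assigned to COL3A1 at chromosome 36, 30546985 to 30547587, lies in exon 50 of 54 of COL5A2, so the place of a peak and its nearest gene can refer to different genes.

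COL11A1 was nearest to more DUX4 peaks than any other of these genes, 21, and to no DUXC or DUXC-ALT peak. Their fold enrichments ran from 4.61 to 16.3 with a median of 6.61, and 3 reached 10. The strongest lay 1291 bp upstream of an annotated start, placed as promoter but within the gene's listed ends. Introns held 11 of the 21, exons 2 and intergenic sequence 7. An exonic peak of 10.6 lay in exon 7 of 67. COL1A1 and COL1A2, the chains of type I collagen, had no DUXC peak. COL1A1 had 1 DUX4 peak of 8.62, placed as promoter 2569 bp into the gene, and COL1A2 had 2, of 11.0 and 12.3.

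Among the network collagens, which form sheets in basement membranes, COL4A2 alone was nearest to a DUXC peak, 1 of 4 genes, while 4 of 4 were nearest to DUX4 peaks. The COL4A2 peak lay in intron 1 of 44 at 7.75-fold enrichment, over a DUX4 peak of 8.89. A second DUXC peak between COL4A2's listed ends, of 10.2, was assigned to RAB20 and overlapped a DUX4 peak of 11.3. It was placed in intron 18 of 18. The 3 DUX4 summits in that intron had RAB20, NAXD and CARS2 as nearest genes. These summits are therefore uncertain as peaks of COL4A2, and the counts by position include them. COL8A1, a short-chain collagen of vessel walls and the eye, had a DUX4 peak of 18.0 in intron 1 of 3 within an MLT1D element, at chromosome 33, 6331887 to 6332317. None of its 3 nearest peaks overlapped a DUXC peak. COL4A5 and COL4A6, which lie side by side on the X chromosome, held 17 DUX4 summits over 556.3 kb and were nearest to 8 peaks, none of them in the DUXC or DUXC-ALT list.

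Among the fibril-associated (FACIT) collagens, which bind to the surface of fibrils, 1 of 5 genes was nearest to a DUXC peak and 5 of 5 to DUX4 peaks. The DUXC peak at COL22A1 had the lowest fold enrichment of the 21, 3.5, and the only raised local background among them (over 3 times the 1st percentile of the list). It overlapped a DUX4 peak of 5.33. COL9A1, a chain of the cartilage collagen type IX, was nearest to 13 DUX4 peaks, but only 3 DUX4 summits lay inside it. Its strongest, 15.4, lay in intron 29 of 49 of the neighbouring COL19A1. COL14A1 was nearest to 10 DUX4 peaks and held 15 summits, and 4 of its nearest peaks lay in exons, of which that in exon 3 of 48 had the highest fold enrichment, 12.7. COL21A1 was nearest to 8 DUX4 peaks, 2 of them placed as promoter.

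Among the other collagens, COL15A1 and COL23A1 had DUXC peaks. The COL15A1 peak, at a collagen of the basement membrane zone, lay in the promoter class, 1317 bp downstream of an annotated start within the gene, with a fold enrichment of 8.21, and overlapped no DUX4 peak. The only DUX4 peak nearest to COL15A1 had a fold enrichment of 4.92. The COL23A1 peak of 6.58 lay in intron 1 in a SINEC_c2 element and was nearest to an unnamed gene. At COL6A5, a chain of type VI collagen, a DUX4 peak of 5.22 lay 554 bp upstream of the start in an L1_Canis1 element. COL6A3, the largest chain of type VI collagen, had 5 DUX4 peaks of 5.11 to 11.0 and no DUXC peak.

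**Figure D3:**
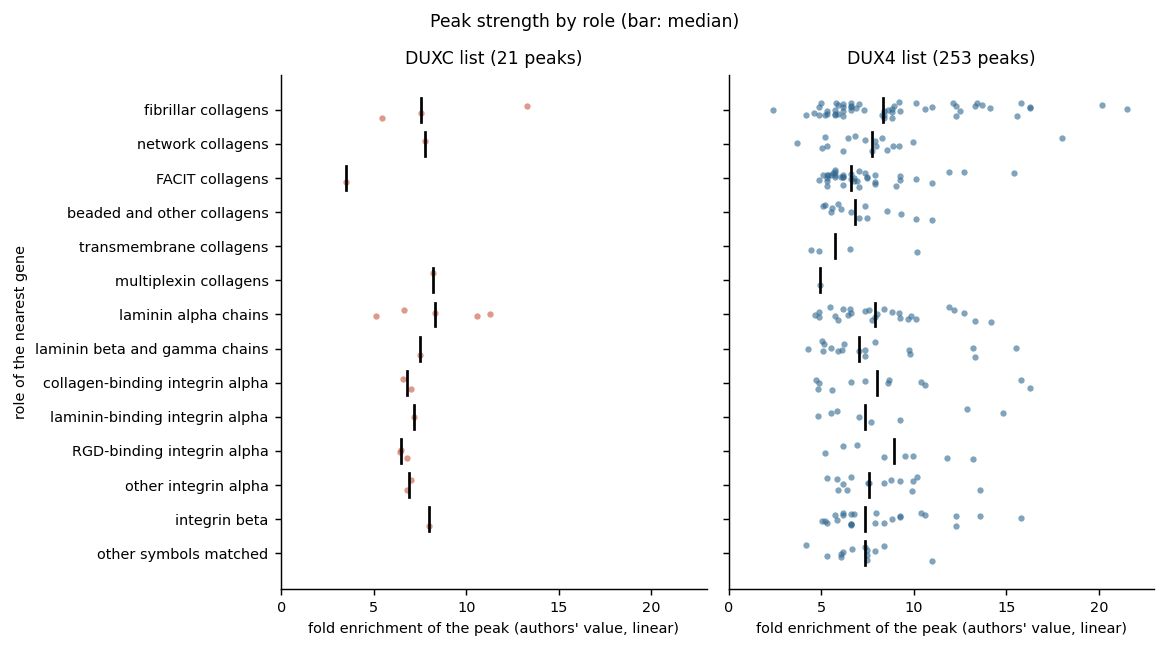
Fold enrichment (the authors' value, linear axis) of the 21 DUXC peaks (left) and 253 DUX4 peaks (right) by the role of their nearest gene. Each point is a peak and each bar the median of its role. DUX4 peaks of fibrillar collagens reach 21.5 with a median of 8.32, and those of FACIT collagens have a median of 6.61. Of the 54 fibrillar peaks, 15 are nearest to COL5A2, with a median of 12.1, and 21 to COL11A1, with a median of 6.61.

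Of the laminin alpha chains, which carry the cell-binding end of the trimer, 3 of 5 genes were nearest to a DUXC peak, none to a DUXC-ALT peak and 4 of 5 to DUX4 peaks. LAMA4, an alpha chain of vessels and muscle, had 2 DUXC peaks upstream. The one 51258 bp away had a fold enrichment of 11.3 and no DUX4 counterpart. The one 44445 bp away had 10.6 and overlapped a DUX4 peak of 9.20. These and the COL3A1 peak are the 3 of 21 DUXC peaks that reached 10 (14.3%, 3.05 to 36.3%), beside 13.5% of the peaks at other named genes. LAMA3, an epithelial alpha chain, had a DUXC peak of 8.33 in exon 36 of 75 that overlapped a DUX4 peak of 13.3, with summits 19 bp apart at chromosome 7, 64490288 to 64490639 for DUX4. Its other DUXC peak, 6.64 in intron 12 of 74, lay in an MLT1K element and had no DUX4 counterpart. LAMA3 was nearest to 10 DUX4 peaks of 4.86 to 14.2.

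LAMA2, the alpha chain of adult muscle basement membrane, was nearest to no DUXC peak but held 1 by position. That peak, of 12.6, lay in intron 4 of 64 in an L1MEd element at chromosome 1, 67697627 to 67697987, and overlapped a DUX4 peak of 8.37. Along the 586.1 kb of LAMA2 lay 28 DUX4 summits of 4.31 to 15.4, of which 27 were intronic and 1 exonic. The nearest gene was unnamed for 21 of them. The density, 4.78 per 100 kb (3.18 to 6.91), lay within the quartiles of other genes of 100 kb or more. LAMA1, the embryonic alpha chain, held a DUXC peak of 4.61 in exon 41 of 62 that overlapped a DUX4 peak of 6.75.

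LAMA5, a widely expressed alpha chain, was the only one of the 56 genes with a nearest DUXC peak and no nearest DUX4 peak. The DUXC peak, of 5.11, lay 1889 bp upstream of the listed start and overlapped no DUX4 peak. The listed span of LAMA5, 743.2 kb, is the longest among the laminins. It covers peaks whose nearest genes are TAF4, OSBPL2, LSM14B, GATA5 and CDH4, so its 7 DUX4 summits and 1 DUXC summit are uncertain as peaks of LAMA5. The summit nearest to GATA5 was placed in intron 1 of 33, so the listed start, and the promoter placement of the 5.11 peak, are uncertain as well. A DUXC peak of 12.3 in intron 1 overlapped a DUX4 peak of 13.6 there, with an unnamed gene nearest. Among the beta and gamma chains, 1 of 5 genes was nearest to a DUXC peak and 5 of 5 to DUX4 peaks. LAMB4 had a DUXC peak of 7.51 in intron 9 of 32, whose summit lay 1 bp from that of a DUX4 peak of 15.5 at chromosome 18, 12538361 to 12538765.

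**Figure D4:**
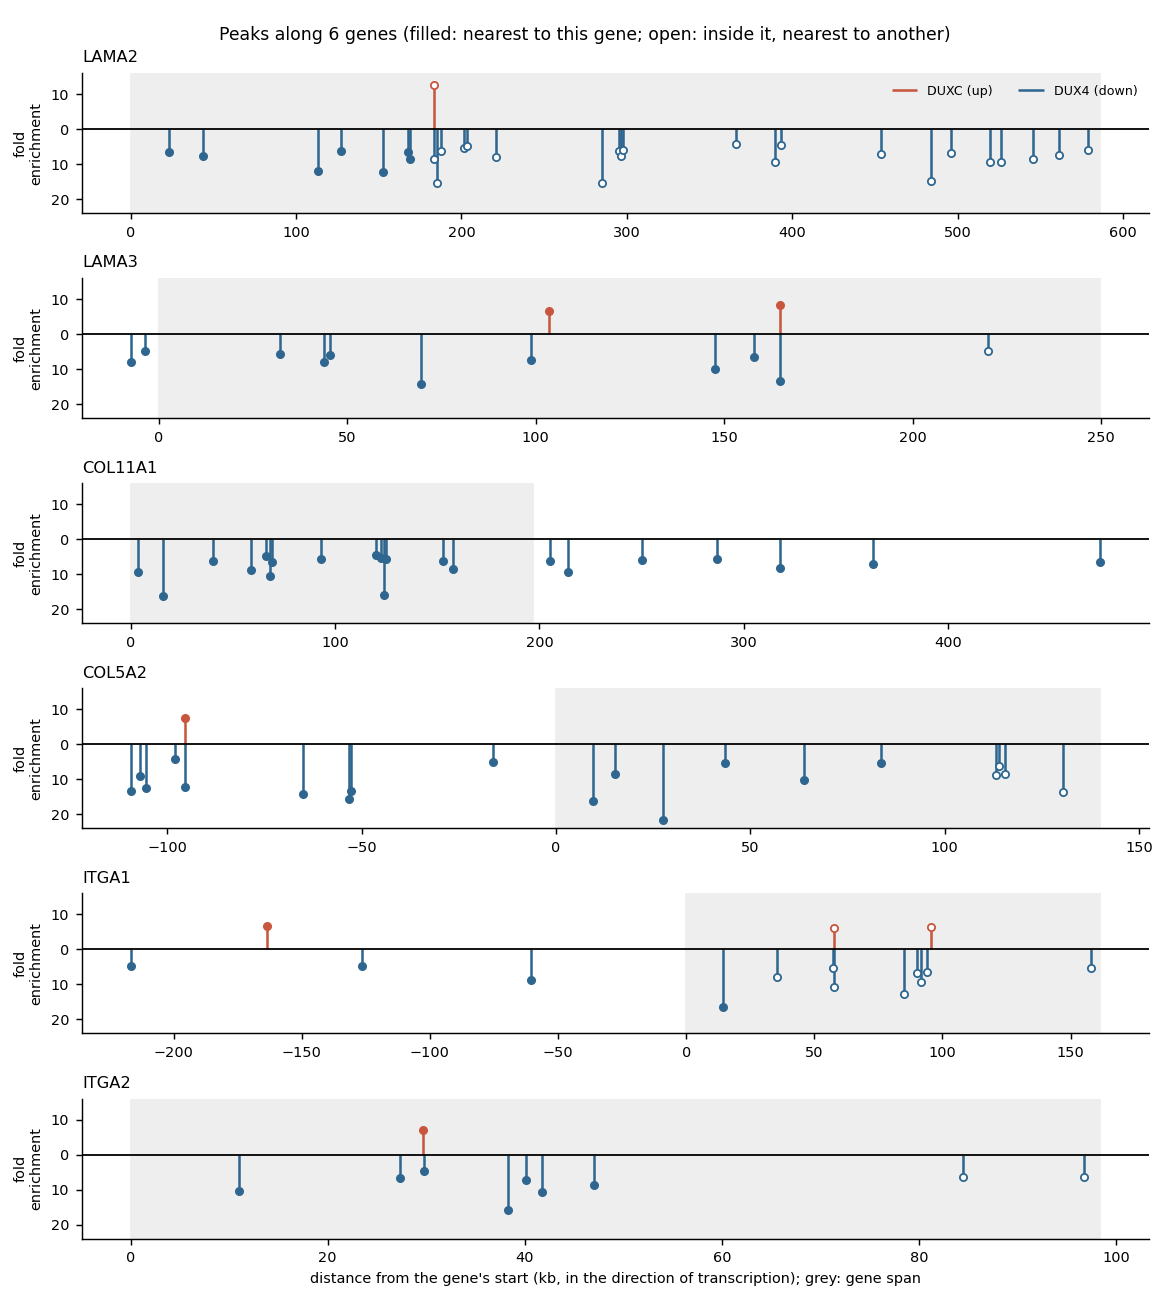
Peaks along LAMA2, LAMA3, COL11A1, COL5A2, ITGA1 and ITGA2, by distance of the summit from the gene's start in kb in the direction of transcription. Stems show fold enrichment, upward for DUXC and downward for DUX4. Filled heads mark peaks whose nearest gene is the gene shown, open heads peaks inside it with another nearest gene, and the grey block is the gene's span. In LAMA2, 21 of the 28 DUX4 stems have open heads, and in COL5A2 9 of the 15 filled DUX4 stems lie outside the gene.

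Of the integrin alpha subunits that bind collagen, ITGA1 and ITGA2 were nearest to DUXC peaks, 2 of 3 genes, and 3 of 3 were nearest to DUX4 peaks. They lie side by side on chromosome 4 over 285.1 kb, which held 3 DUXC, 0 DUXC-ALT and 19 DUX4 summits. ITGA2 held 9 DUX4 summits in 98.4 kb, or 9.15 per 100 kb (4.18 to 17.4), the highest density of the 56 genes. Its DUXC peak of 7.02 in intron 2 of 29 overlapped a DUX4 peak of 4.72. The strongest ITGA2 peak, 15.8 for DUX4, lay in the same intron without a DUXC counterpart. ITGA1 was nearest to 1 DUXC peak of 6.59, 163521 bp upstream in an L1_Cf element. By position it held 2 more, of 6.40 in intron 9 and 6.02 in intron 3, both in LINE elements, the second overlapping a DUX4 peak of 10.6. A DUX4 peak of 16.3 lay in the promoter class 1745 bp downstream of an annotated start within ITGA1, at chromosome 4, 62441009 to 62441427.

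ITGA6, a laminin-binding alpha subunit, had a DUXC peak of 7.20, 31254 bp upstream in a MER5B element with no DUX4 counterpart, and 8 DUX4 peaks of 4.84 to 14.8. Of the subunits that bind the RGD sequence of matrix proteins, ITGA8 and ITGAV had DUXC peaks. ITGA8 had one of 6.78 in intron 1 in a SINEC_Cf element, over a DUX4 peak of 11.8, and one of 6.48 upstream, over a DUX4 peak of 6.18. The ITGAV peak of 6.42 lay 12587 bp upstream in a MIR element without a DUX4 counterpart.

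Among the alpha subunits known mainly from leukocytes, ITGAE had a DUXC peak of 7.02, 7018 bp upstream, whose summit lay 1 bp from that of a DUX4 peak of 10.2. ITGAM had one of 6.78 in an LTR75 element without a DUX4 counterpart. ITGA4 had no DUXC peak, but a DUX4 peak of 13.6 lay 616 bp into the gene at chromosome 36, 24654720 to 24655094. With COL6A5, ITGA4 made up the 2 of 56 genes (3.57%, 0.436 to 12.3%) that were nearest to a DUX4 peak within 1 kb of a start, beside 8.37% of the other named genes. For DUXC it was 0 of 56, beside 1.64%.

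Of the 4 integrin beta genes, ITGB5 had the only DUXC peak and 4 of 4 had DUX4 peaks. The ITGB5 peak of 8.0 in intron 5 of 14 shared its summit within 1 bp with a DUX4 peak of 10.4. ITGB6, an epithelial beta subunit, had 8 DUX4 peaks, the strongest of 15.8 lying 9180 bp upstream in an L1_Canid_ element. ITGB1, the beta subunit shared by the collagen- and laminin-binding receptors, was nearest to 7 DUX4 peaks of 5.72 to 12.3, of which 6 had their summit in a repeat, and to no DUXC peak. Only 2 DUX4 summits lay inside ITGB1, in introns counted of 14. Of the 7 peaks, 2 were intergenic, and those at 92588 to 137473 bp from the start lay in introns counted of 18. The latter are therefore uncertain as peaks of ITGB1. Among the 3 symbols that name no subunit, none had a DUXC peak. ITGBL1 was nearest to 9 DUX4 peaks of 5.30 to 11.0.

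By place relative to genes, the DUX4 shares of collagen, laminin and integrin genes and of other genes lay furthest apart for introns, and close together for introns of long genes. Introns held 61.3% of the 253 peaks (54.96 to 67.3%), beside 41.6% at other named genes. At genes of 100 kb or more the shares were 64.1% and 62.0%. Intergenic sequence held 28.5%, beside 46.2%. The promoter class held 4.35% (2.19 to 7.65%), beside 7.89%, and at long genes 3.85% beside 4.70%. Of the intronic peaks 21.3% lay in intron 1, beside 27.6%. Exons held 5.93% (3.36 to 9.59%), beside 3.47%. By position inside genes of 100 kb or more, exons held 18 of 232 DUX4 summits (7.76%, 4.66 to 11.98%), beside 3.72% in other long genes. Of those 18, 3 lay in LAMA5's uncertain span and 4 in COL14A1. Without LAMA5 the share was 6.67% (3.78 to 10.8%). The length of exon sequence in each gene was not used here, so exon shares are not corrected for it.

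**Figure D5:**
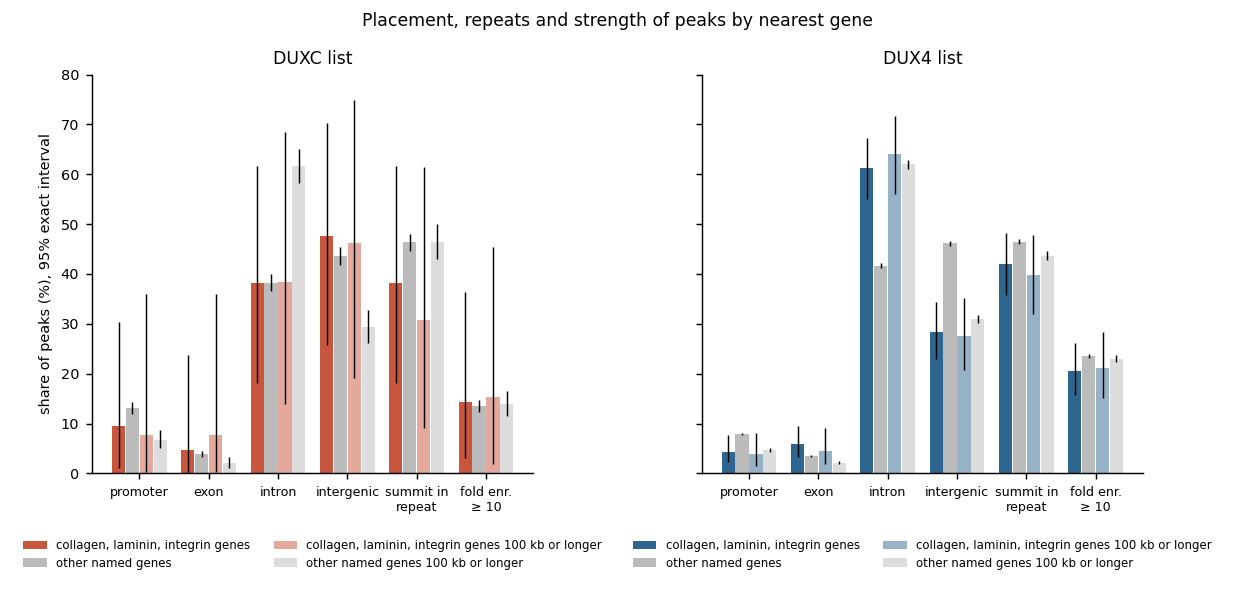
Share of peaks (percent, with exact 95% intervals) by place, with the summit in a recorded repeat, and with a fold enrichment of at least 10, in the DUXC list (left) and the DUX4 list (right), by nearest gene. Coloured bars are collagen, laminin and integrin genes and grey bars other named genes, each for all genes and for genes of 100 kb or more. In the DUX4 list the intron bars stand at 61.3% and 41.6% over all genes and at 64.1% and 62.0% over long genes.

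The 21 DUXC peaks were too few to separate most shares. Introns held 38.1% (18.1 to 61.6%), beside 38.3% at other named genes, intergenic sequence 47.6% beside 43.6%, and the promoter class 9.52% beside 13.2%. At genes of 100 kb or more the values lay further apart, on 13 DUXC peaks. Introns held 38.5% of those (13.9 to 68.4%), beside 61.7% at other long genes. Intergenic sequence held 46.2% (19.2 to 74.9%), beside 29.4%. The values of other long genes lie inside both intervals. The promoter class held the COL15A1 and LAMA5 peaks, the 2 genes (3.57%) with a DUXC peak within 5 kb of a start, beside 5.24% of the other named genes. In the DUX4 list 19 genes (33.9%, 21.8 to 47.8%) had such a peak, beside 37.6%. The placement of the LAMA5 peak rests on a listed start that is uncertain.

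For summits in repeats, the share at other genes lay inside the interval of these genes in both lists. The DUXC summit lay in a recorded repeat for 8 of 21 peaks (38.1%, 18.1 to 61.6%), beside 46.3%. Those 8 fell in 3 LINE, 2 LTR, 2 SINE and 1 DNA elements. A repeat was recorded anywhere in the peak for 52.4% (29.8 to 74.3%), beside 74.9%, which lies just above that interval. For DUX4 summits the shares were 41.9% (35.8 to 48.2%) and 46.5%, and by position inside genes 39.1% (33.4 to 45.0%) and 40.6%.

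DUXC and DUX4 peaks coincided at these genes about as often as elsewhere. Overlap with DUX4 by at least 1 bp was found for 12 of the 21 DUXC peaks (57.1%, 34.0 to 78.2%), beside 56.1% at other named genes. In the other direction 12 of 253 DUX4 peaks overlapped a DUXC peak (4.74%), beside 4.49%. By position, 12 of the 17 DUXC summits inside these genes belonged to such a pair (70.6%, 44.0 to 89.7%), beside 57.3%. The summits of the 12 pairs by nearest gene lay 1 to 366 bp apart, with a median of 23.5 bp. The median fold enrichment in the DUXC list was 7.27 for the 12 overlapping and 6.78 for the 9 other DUXC peaks.

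By nearest gene, peak strength at these genes was close to that elsewhere in the same list. The median fold enrichment was 7.02 for the 21 DUXC peaks (quartiles 6.59 and 8.0), beside 7.04 at other named genes (5.93 and 8.48). It was 7.35 for the 253 DUX4 peaks (5.84 and 9.24), beside 7.37 (5.89 and 9.77). A DUXC peak of at least 10 was nearest to 2 genes (3.57%), COL3A1 and LAMA4, beside 3.62% of the other named genes. A DUX4 peak of at least 10 was nearest to 28 genes (50%, 36.3 to 63.7%), beside 48.6%. By position, 4 of the 17 DUXC summits reached 10 (23.5%, 6.81 to 49.9%), beside 14.1% in other named genes. For DUX4 it was 60 of 289 (20.8%, 16.2 to 25.9%), beside 23.7%.

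No DUXC-ALT summit lay in any of the 56 genes, beside 1.33% of the other named genes. The closest DUXC-ALT peak lay 19.9 kb from LAMB3, with a fold enrichment of 6.33, and was nearest to an unnamed gene. The next closest lay 36.2 kb from ITGAE, 114.3 kb from COL21A1 and 209.4 kb from LAMA2.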

How the data were processed

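ChIP-seq peak lists of the DUXC, DUXC-ALT and DUX4 libraries were used, 1 library per group. The luciferase libraries were not analysed here by themselves. Per the submitters' processing notes, tools were MACS2 2.1.0, BWA 0.7.10 and CASAVA and the build was canFam3. Their roles are not stated. The control library, peak thresholds, filters and read numbers are not given in the sources used here. The authors deposited, for each peak, its summit pileup (signal), its fold enrichment (a ratio over local background) and its −log10 q-value, with the nearest gene, the place and at most 1 repeat.

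Scripts in Python 3.11.15 (numpy 2.4.6, pandas 2.3.3, scipy 1.17.1, matplotlib 3.10.9) counted peaks by the authors' nearest gene and by summit position between the gene's listed ends. The listed ends were the outermost ends of the gene's transcripts that the lists gave for its peaks. Transcripts nearest to no peak did not enter, so spans, densities and the 100 kb limit depend on the lists. Overlap meant 1 bp or more. Local background was taken as (pileup + 1) / fold enrichment − 1. The overlap and position code was tested on simulated lists. RefSeq's UU_Cfam_GSD_1.0 table was used for names alone.

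The members and lists were chosen with earlier results of these data known. Genes named in the text were those with a DUXC or DUXC-ALT peak, the 10 with the highest DUX4 fold enrichment, the 10 with most DUX4 peaks, those with a peak within 1 kb of a start, and those with an exonic DUX4 peak of at least 10. COL1A1, COL1A2, COL4A5, COL4A6, COL6A3, COL19A1, COL23A1, COL24A1, ITGB1, LAMA1, LAMA2 and LAMB3 were added after their values were seen. No promoter sequence was used here, so the planned motif search was not made.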

Additional observations from a re-analysis of the deposited data

How the results depend on the processing

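Each list is 1 library, so no replicate could be left out, and no paired analysis was possible because each group has 1 sample. Of 182 recomputed values under 16 alternative settings, 131 stayed within their interval or within 1.5 times the count and 51 moved. Of the 56 that have a value of the other named genes beside them, 10 put the collagen, laminin and integrin genes on the other side of it than the values in the report, each time with the other genes' value inside the interval of these genes. Counting by position inside the gene, leaving out LAMA5 and leaving out COL4A3BP with the other symbols that name no subunit were chosen after seeing the data, and left each value recomputed under them within those limits. So did a −log10 q of at least 5, leaving out raised local background, and stricter rules of overlap. The number of reads behind a peak is unknown, which limits what an absent peak means.

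With a fold enrichment of at least 10, DUXC kept 2 genes (3.57%, beside 3.62% of other named genes) and 3 peaks, of which 0% were promoter, exon, in a repeat or over a DUX4 peak that also reached 10. The median of the genes' highest values was then 12.3 and the density, on 4 summits, 0.0501 per 100 kb, beside 0.0386 in other named genes. DUX4 kept 28 genes (50%, beside 48.6%) and 52 peaks, with 7.69% promoter, 51.9% intron and 32.7% in a repeat. Of the 52, 0% lay over a DUXC peak that also reached 10, though some overlapped weaker DUXC peaks, as at COL5A1 and LAMB4. The DUX4 density was 0.752 per 100 kb, beside 0.890 in other named genes. With the 561 strongest peaks of each list, DUXC kept 2 genes (3.57%, beside 2.65%), 2 peaks, 0% promoter, exon, repeat or overlap, a median of 12.3 and 0.0376 per 100 kb, beside 0.0288. DUX4 kept 2 genes (3.57%, beside 2.26%), 2 peaks, 0% promoter or exon, 50% each for intron, intergenic and repeat, a median of 20.9 and 0.0251 per 100 kb, beside 0.0260. Of these DUX4 peaks, 0% overlapped one of the 561 strongest DUXC peaks. Within 5 kb of a start, DUXC had 2 genes (3.57%, beside 5.24%) and 2 peaks, and DUX4 19 genes (33.9%, beside 37.6%) and 22 peaks. For nearest peaks inside the gene or within 5 kb of its ends, DUXC had 10 genes (17.9%, beside 11.9%) and 11 peaks, and DUX4 162 peaks at 83.9% of the genes, beside 68.0%. Within 50 kb of a start DUX4 had 157 peaks at 91.1% of the genes, beside 95.2%. With dog gene names alone its share of genes was 100%, beside 97.5%, and its density 3.89 per 100 kb, beside 3.75. Without LAMA5 that density was 3.90, beside 3.75. Without raised local background the DUX4 share of genes was 94.6%, beside 96.4%. With genes of 100 kb or more alone it was 96.4%, beside 99.3%. With any overlap with a repeat in place of the summit, the DUX4 share was 68.8%. These settings keep fewer peaks or widen the rule by construction. The cause of any other shift was not tested.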

Other observations

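A list of 71 genes of the surrounding pathway (matrix glycoproteins, basement membrane partners, proteoglycans, collagen processing enzymes, proteases and their inhibitors, adhesion machinery and other matrix receptors) had 39 genes named in the peak lists. Of these 39, DUXC peaks lay nearest to 12 (30.8%), beside 23.0% of the named genes outside the collagen, laminin and integrin families. DUXC-ALT peaks lay nearest to 2 (5.13%), beside 2.36%, and DUX4 peaks to 37 (94.9%), beside 97.5%. By group, DUXC peaks lay nearest to 1 of 8 matrix glycoprotein genes (12.5%), 1 of 9 collagen processing genes (11.1%), 1 of 4 proteoglycan genes, 1 of 4 protease and inhibitor genes, 1 of 2 basement membrane partners and 3 of 5 other matrix receptors. Of the 7 named genes of the adhesion machinery, which ties integrins to actin, 4 (57.1%) were nearest to a DUXC peak. The same 23.0% stands beside each of these counts of at most 9 genes. The 4 were FERMT2, an integrin activator, PARVA, an actin-binding partner of integrin-linked kinase, and the talins TLN1 and TLN2.

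PARVA was the only one of the 39 with a nearest peak in all 3 lists. Its highest fold enrichment was 12.7 of 2 DUXC peaks, 9.79 at the 1 DUXC-ALT peak and 25.1 of 5 DUX4 peaks. BCAM, a laminin receptor, had a DUXC peak of 6.70 and a DUXC-ALT peak of 8.97 but no nearest DUX4 peak. TLN1 had a DUXC peak of 9.09 and no nearest DUX4 peak. POSTN, a matrix protein that binds integrins and collagen, had a DUXC peak of 12.03 and 8 DUX4 peaks of up to 17.1. SDC4, a heparan sulfate receptor at focal adhesions, had a DUXC peak of 12.9. TLN2 was nearest to 2 DUXC peaks of up to 6.54 and 11 DUX4 peaks of up to 24.5. With 1 library per group these values carry no test.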
